A study of Mus musculus with 44 samples.

Results

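The 8 bulk tissue libraries of the nucleus accumbens described here belong to a study of 44 mouse samples on transcriptional control of this brain region by retinoid X receptor alpha (RXRa). They were chosen by their labels, with no use of measured values: 4 libraries (GFP 1 to GFP 4) came from tissue that received a herpes simplex virus vector labelled HSV-GFP, and 4 (RXRa 1 to RXRa 4) from tissue that received the vector labelled HSV-RXRa-GFP. All 8 are from males and all received a virus that carries GFP, so no library from tissue without a virus enters the comparison. Strain, age, genotype, the promoter in the vector and the time after infusion are not given in the sources used here. The labels do not say whether the libraries of a group came from separate animals, so p-values below measure the spread between these samples, which may be technical. RNA was selected by its poly(A) tail and sequenced as read pairs, and the question addressed is which transcripts differ when RXRa is overexpressed.

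RXRa is a nuclear receptor that binds DNA as the partner of other nuclear receptors, among them the receptors for retinoic acid, thyroid hormone, vitamin D and oxysterols, and so can raise or lower transcription of their target genes. The nucleus accumbens is the ventral part of the striatum, works in reward and motivation, and consists mainly of projection neurons that express the dopamine receptor gene Drd1 or Drd2. Interferons are signals of antiviral defence: their receptors act through the kinase Tyk2 and the factors Stat2 and Irf9, which work in a complex that binds the interferon-stimulated response element (ISRE) near the start of antiviral genes.

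The promoters of 5 interferon-regulated genes that were higher in the RXRa libraries are shown first, because they hold the letters by which such genes are recognised. Each run gives the 250 bases before the transcription start that RefSeq lists, on the assembly GRCm38.p6 and on the strand of the gene. Capitals mark each match of the ISRE core, which is GAAA, any 2 bases and GAAA again, on either strand. Ifit1 lies on the plus strand at chr19:34640639-34640888, Ifit1bl1 on the minus strand at chr19:34601969-34602218, Gbp3 on the plus strand at chr3:142559794-142560043, Stat2 on the plus strand at chr10:128270248-128270497 and Tgtp1 on the minus strand at chr11:48992247-48992496. Ifit1 holds 2 matches, which begin 104 and 85 bases before the start, and the 2 matches of Gbp3, 45 and 39 bases before it, overlap. The single match begins 104 bases before the start in Ifit1bl1, 222 in Stat2 and 77 in Tgtp1. Matches of this core occurred in 3.44% of all 32851 promoter windows of RefSeq, each counted over 250 bases before to 50 bases after the start.
Ifit1: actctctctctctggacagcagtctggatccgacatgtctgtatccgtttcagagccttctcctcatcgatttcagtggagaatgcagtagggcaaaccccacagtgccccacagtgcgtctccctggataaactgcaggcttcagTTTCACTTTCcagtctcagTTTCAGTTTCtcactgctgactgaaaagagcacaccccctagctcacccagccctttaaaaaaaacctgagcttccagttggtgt
Ifit1bl1: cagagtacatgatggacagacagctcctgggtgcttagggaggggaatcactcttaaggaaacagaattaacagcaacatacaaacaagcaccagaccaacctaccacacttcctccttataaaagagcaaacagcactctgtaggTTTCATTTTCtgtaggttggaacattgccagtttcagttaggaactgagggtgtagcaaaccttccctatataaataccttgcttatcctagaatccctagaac
Gbp3: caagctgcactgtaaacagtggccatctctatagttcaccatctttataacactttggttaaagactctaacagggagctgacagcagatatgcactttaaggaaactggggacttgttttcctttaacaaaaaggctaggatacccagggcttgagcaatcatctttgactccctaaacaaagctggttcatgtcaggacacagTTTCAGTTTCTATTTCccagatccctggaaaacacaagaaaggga
Stat2: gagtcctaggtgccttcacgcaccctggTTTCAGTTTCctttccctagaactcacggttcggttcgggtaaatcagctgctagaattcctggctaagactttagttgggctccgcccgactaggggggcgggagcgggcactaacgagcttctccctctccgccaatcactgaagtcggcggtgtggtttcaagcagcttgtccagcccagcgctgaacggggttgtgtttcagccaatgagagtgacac
Tgtp1: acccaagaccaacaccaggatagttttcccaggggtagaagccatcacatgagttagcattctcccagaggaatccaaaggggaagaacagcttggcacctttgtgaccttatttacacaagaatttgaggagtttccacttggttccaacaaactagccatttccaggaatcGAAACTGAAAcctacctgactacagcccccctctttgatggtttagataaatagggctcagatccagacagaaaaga

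The 8 libraries held 21567565 to 29167142 counts over genes, and 27410 to 29069 genes had a count. Counts of the RXRa sequence carried by the vector were 0 in each GFP library, so that a true level of 0.106 to 0.112 CPM (counts scaled to the size of the library, here with TMM factors) could be missed through counting error alone. The level was 22.1, 27.8, 37.7 and 37.0 CPM in RXRa 1 to RXRa 4, and this difference had the smallest p that 4 against 4 libraries can give (exact two-sided permutation test, p = 0.0286). The vector GFP sequence was at 37.7, 61.2, 46.8 and 28.4 CPM in GFP 1 to GFP 4 and at 36.0, 49.4, 65.4 and 56.0 CPM in RXRa 1 to RXRa 4. The GFP levels of the groups overlapped (exact two-sided permutation test, p = 0.371). The markers of the labelled tissue were high in every library: Drd1 was between 195 and 278 CPM and Drd2 between 167 and 233 CPM.

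The native gene Rxra, on chromosome 2, showed no increase. Its level was 57.6, 51.7, 46.2 and 49.9 CPM in the GFP libraries and 46.0, 51.9, 43.5 and 47.9 CPM in the RXRa libraries, and the log2 ratio was -0.12 (SE 0.08, n = 4 and 4, edgeR's quasi-likelihood test, adjusted p = 0.428). The groups overlapped, so the labelled difference was seen in the vector sequence and not in the native transcript.

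Markers of cortical excitatory neurons varied widely within both groups. The summed level of Slc17a7, Tbr1 and Neurod2, genes of a vesicular glutamate transporter and of 2 cortical transcription factors, was 6.64, 96.3, 696 and 80.9 CPM in GFP 1 to GFP 4 and 446, 86.8, 529 and 65.5 CPM in RXRa 1 to RXRa 4. GFP 3, RXRa 1 and RXRa 3 were high, GFP 1 was lowest, and the highest sum was 105-fold the lowest. The groups overlapped throughout: the log2 ratio of Slc17a7 was 0.38 (edgeR, adjusted p = 0.885), and its sign turned when GFP 1 or RXRa 3 was left out. Of the 14 cortical marker genes tested, edgeR called 0, 0 had an unadjusted p under 0.05, and DESeq2 and limma's voom each called 0. Fits were also run with the summed level as a covariate and with GFP 3, RXRa 1 and RXRa 3 left out. Counts of calls under both are given for the gene lists below. The second fit sets GFP 1, GFP 2 and GFP 4 against RXRa 2 and RXRa 4 only. These RXRa libraries have the highest summed levels of the leukocyte genes below (1073 and 974 CPM). In its counts the cortical spread and the choice of libraries therefore cannot be told apart. The plot of summed levels shows the 3 main groups of genes beside the cortical sum.

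**Figure D1:**
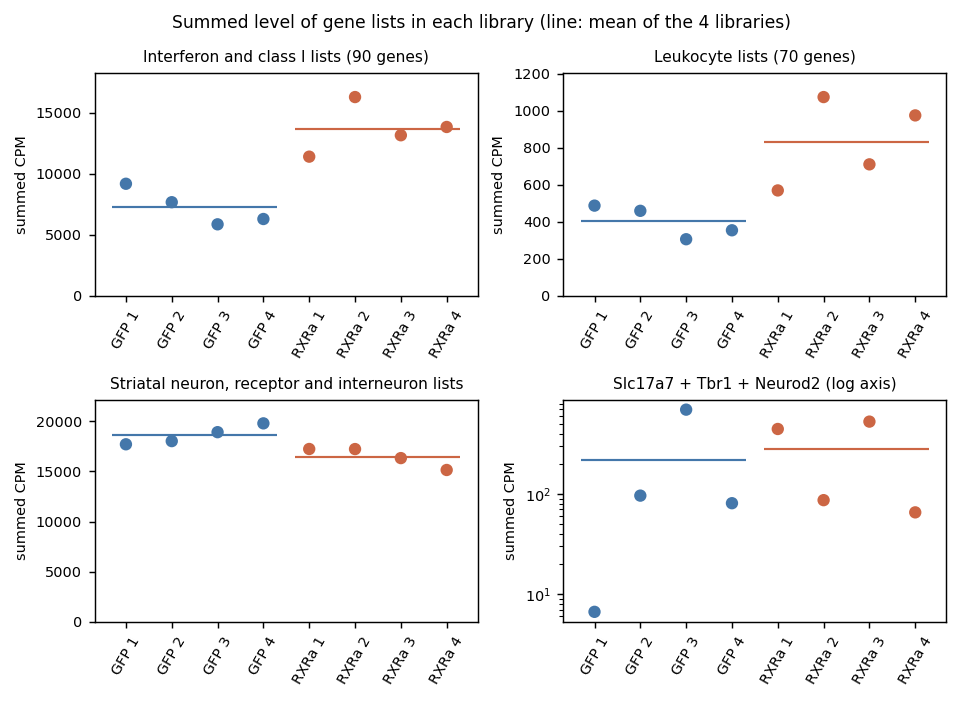
Summed CPM in each library (points; lines are means of 4 libraries) for the interferon and class I lists, the leukocyte lists, the lists of striatal neuron genes and receptor subunits, and for Slc17a7, Tbr1 and Neurod2 on a log axis. All 4 RXRa libraries lie above all 4 GFP libraries in the 2 upper panels and below them in the neuronal panel, while the cortical sum spans 6.64 to 696 CPM with no separation of the groups.

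Rises were more frequent and larger than falls. Of 18579 genes tested, edgeR called 559 higher in the RXRa libraries (3.01% of all genes tested) and 128 lower (0.689%), at an adjusted p under 0.05. The median log2 fold change was 1.15 among the genes called higher, of which 333 exceeded 1, and -0.32 among those called lower, of which 0 went beyond -1 and 15 went beyond -0.5. The median over all genes tested was -0.015. In 555 of the 559 genes called higher every RXRa library stood above every GFP library, and in 128 of the 128 called lower every RXRa library stood below, against 6.64% and 6.54% of all genes tested. An unadjusted p under 0.05 was found for 21.5% of genes, and DESeq2 called 8.6%, limma's voom 3.32% and edgeR with library totals in place of TMM scaling 3.42%.

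The libraries of a group were not alike. Among the genes called higher, RXRa 1 was the lowest RXRa library for 459 and RXRa 2 the highest for 381, while GFP 3 was the lowest GFP library for 315 and GFP 1 the highest for 303. The number of calls in either direction fell from 687 (3.7% of genes tested) to 9 (0.0476%) without GFP 4, to 175 (0.931%) without RXRa 4 and to 243 (1.29%) without GFP 2. It was 295 (1.57%) without RXRa 3, 333 (1.77%) without RXRa 2, 402 (2.13%) without GFP 3, 602 (3.19%) without GFP 1 and 1016 (5.38%) without RXRa 1. Of the 81 called genes that the naming rule or the later choices picked, 3 kept their call in each of these 8 fits: Ifit1bl1, Oas1b and Stat2. With the cortical sum as a covariate 1958 genes were called higher and 682 lower (14.2% in all), among them all 559 and all 128. Without GFP 3, RXRa 1 and RXRa 3 the counts were 1033 and 82 (5.84%), with 504 and 32 of the genes above.

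**Figure D2:**
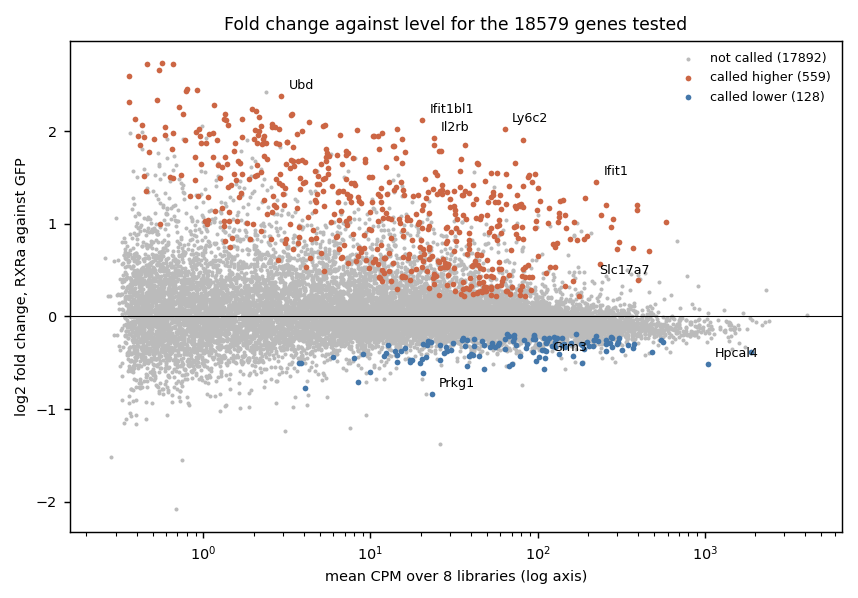
Log2 fold change of RXRa against GFP (vertical) against the mean CPM over 8 libraries (horizontal, log axis) for the 18579 genes tested; orange and blue points are the 559 genes called higher and the 128 called lower. The orange points reach past a log2 fold change of 2, at Ubd, Ifit1bl1 and Ly6c2 among others, while no blue point lies below -1.

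Genes of RXRa's partners went both ways. Among 16 tested genes of the retinoid X receptors and their partners, 1 was called higher and 1 lower. That is 6.25% each, against 3.01% and 0.689% of all genes tested. Log2 fold changes ran from -0.55 to 1.08, with a median of 0.03. Of the 16, 8 had an unadjusted p under 0.05, against 21.5% of all genes tested. The groups did not overlap in 5, of which 3 were higher and 2 lower (6.64% and 6.54% of all genes tested). With the cortical covariate 3 were called higher and 2 lower, and without the 3 libraries high in cortical markers 1 higher and 0 lower. The riser was Nr1h3, which encodes liver X receptor alpha, a receptor for oxysterols: its level was 6.25, 6.07, 4.40 and 5.25 CPM in the GFP libraries and 7.72, 10.3, 10.9 and 11.9 CPM in the RXRa libraries. Every RXRa library exceeded every GFP library, at 1.85-fold (log2 SE 0.16, edgeR, adjusted p = 0.0217). Thrb, a thyroid hormone receptor gene, was at 61.6, 58.5, 58.4 and 70.6 CPM against 48.2, 48.7, 48.5 and 53.2 CPM and was 1.25-fold lower (log2 SE 0.07, edgeR, adjusted p = 0.0412), again with no overlap. The call of Thrb was lost in each of the 8 fits that left out 1 library and without the 3 libraries high in cortical markers (edgeR, adjusted p = 0.125). That of Nr1h3 was lost without GFP 2, GFP 4, RXRa 2, RXRa 3 or RXRa 4.

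Of 24 tested target genes of retinoid and liver X receptors, 1 was called higher, Nr1h3 itself, and 0 lower (3.01% and 0.689% over all genes). Log2 fold changes ran from -1.06 to 0.89, 12 positive and 12 negative, with a median of 0.02. Of the 24, 6 had an unadjusted p under 0.05, against 21.5% of all genes tested. The groups did not overlap in 4, of which 4 were higher and 0 lower (6.64% and 6.54% of all genes tested). Abca1, the cholesterol exporter that liver X receptors induce, was at 128 to 235 CPM in the GFP libraries and 133 to 195 CPM in the RXRa libraries, so the groups overlapped (log2 ratio -0.11, SE 0.18, edgeR, adjusted p = 0.769). That sign turned with the cortical covariate and without GFP 1 or RXRa 1. Tgm2, a transglutaminase gene that retinoic acid induces in many cells, was at 46.3, 43.5, 23 and 28.7 CPM against 53.2, 73.2, 65.2 and 69.2 CPM, and Cdkn1a, a cell cycle inhibitor, at 39.8, 34.2, 29.3 and 31.3 CPM against 41.6, 59.6, 48.2 and 45.9 CPM. In both genes the groups did not overlap, and both missed the threshold (edgeR, adjusted p = 0.0544 and 0.0504). Of the target genes 4 were called higher and 1 lower with the cortical covariate, and without the 3 libraries high in cortical markers 4 higher and 0 lower.

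The listed antiviral effector genes were all higher. All 30 tested IFIT, OAS and other interferon-stimulated genes were called higher (3.01% over all genes), with log2 fold changes from 0.74 to 2.11 and a median of 1.21. In all 30 every RXRa library exceeded every GFP library, against 6.64% of all genes tested. Members of this and the other lists were chosen with earlier results of these data known. Counts over a list therefore describe its members and are no test of such genes at large. Ifit1bl1, a member of the family whose proteins bind foreign RNA, was at 8.62, 7.20, 6.36 and 8.51 CPM in the GFP libraries and at 22.2, 41.6, 36.5 and 32.6 CPM in the RXRa libraries. The lowest RXRa library was thus above all GFP libraries, at a mean 4.33-fold higher (log2 ratio 2.11, SE 0.19, edgeR, adjusted p = 0.00499). Ifit1 itself, at chromosome 19, 34640871 to 34650009 on GRCm38, was at 148, 96.4, 122 and 115 CPM against 276, 361, 389 and 288 CPM, 2.73-fold higher (SE of the log2 value 0.15, edgeR, adjusted p = 0.00688). Members of this family, and those of the Oas1 cluster, are similar in sequence, so reads may be split between them. Oas1b, of the family of synthetases that sense double-stranded RNA, was at 12.3 to 16.8 CPM against 34.6 to 43.9 CPM (edgeR, adjusted p = 0.00499). The annotation used here lists Oas1b as a polymorphic pseudogene, a gene whose reference copy is disabled while other strains can carry a working one. With the strain not given, whether its transcript here makes a working protein is not known.

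The Mx genes encode GTPases that block viral replication. Mx2, like Oas1b, is listed as a polymorphic pseudogene, so whether its product works in these mice is not known. Mx1 was at 37.0, 35.6, 31.7 and 37.1 CPM in the GFP libraries and 74.8, 134, 145 and 90.6 CPM in the RXRa libraries, and Mx2 at 23.6, 16.6, 20.1 and 22.2 CPM against 46.2, 54.3, 63.0 and 41.9 CPM. Isg15, a ubiquitin-like modifier, was at 125, 82.2, 101 and 96.4 CPM against 177, 223, 211 and 170 CPM. In these 3 genes the groups were apart, with folds of 3.14, 2.49 and 1.93 (edgeR, adjusted p = 0.00792, 0.00688 and 0.0116). RXRa 1 was the lowest RXRa library for 27 of the 30 genes and RXRa 2 the highest for 24. The count of 30 was 2 without GFP 4 and 19 without GFP 2, and 30 with the cortical covariate and without the 3 libraries high in cortical markers.

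**Figure D3:**
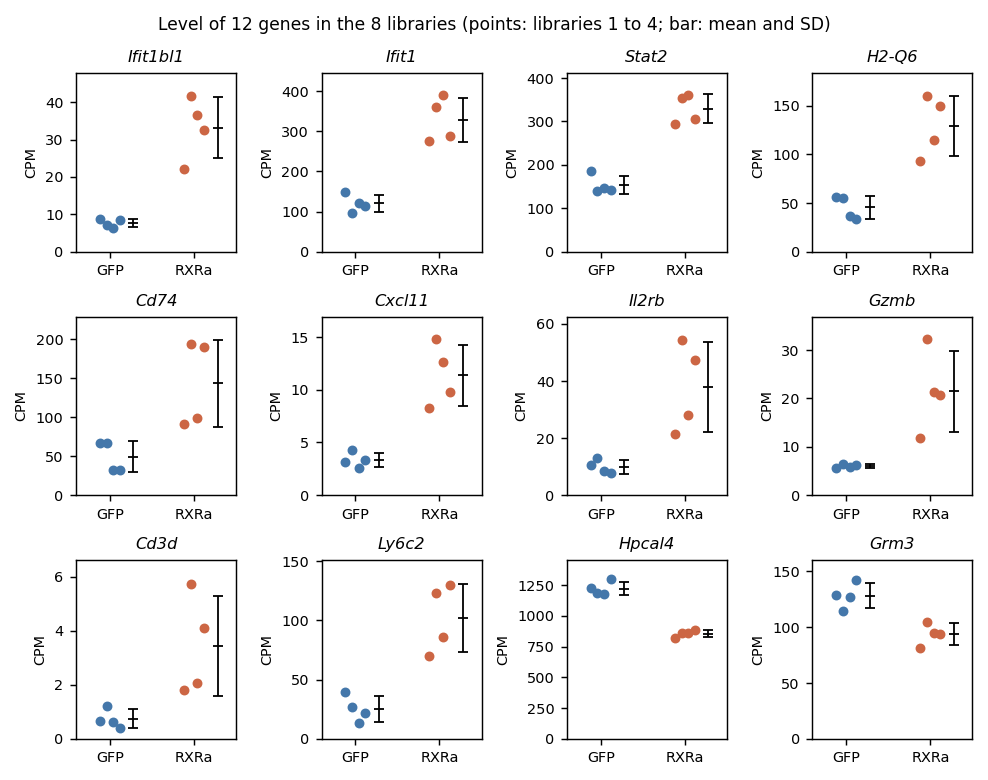
CPM of 12 genes in the 4 GFP (blue) and 4 RXRa (orange) libraries, with mean and SD as a bar beside the points and every axis from 0. In the 10 immune genes all RXRa points lie above all GFP points, and in Hpcal4 and Grm3 all lie below.

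Interferon-induced GTPases, which attack the vacuoles of intracellular pathogens, moved the same way with more spread. All 17 tested had a positive log2 fold change (median 1.21, range 0.87 to 1.65). Of them 9 were called higher, and in 15 every RXRa library exceeded every GFP library (3.01% and 6.64% over all genes). Gbp3 was at 113, 95.1, 70.8 and 72.8 CPM in the GFP libraries and 145, 218, 176 and 173 CPM in the RXRa libraries, 2.03-fold higher (edgeR, adjusted p = 0.0162). Tgtp1, which has a near-identical copy in Tgtp2 and overlaps other annotated genes, was at 9.51, 10.2, 4.10 and 6.18 CPM against 19.0, 28.9, 21.7 and 24.6 CPM, 3.14-fold higher (edgeR, adjusted p = 0.0146). GFP 3 was the lowest GFP library for 16 of the 17 genes and GFP 1 the highest for 16, the 2 libraries at the ends of the cortical range. With the cortical covariate 17 of 17 were called, without the 3 libraries high in cortical markers 14, and without GFP 4 or RXRa 4 none, by edgeR. The count was 3 without GFP 2 or RXRa 2, 4 without RXRa 3 and 14 without GFP 1.

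Genes of the interferon signalling path all had positive log2 fold changes, and some were called. Of 20 tested, 8 were called higher and 0 lower (3.01% and 0.689% over all genes), with a median log2 fold change of 0.75. An unadjusted p under 0.05 was found for 19, and in 15 every RXRa library exceeded every GFP library (21.5% and 6.64% over all genes). Stat2, which joins Irf9 in the ISRE-binding complex, was at 186, 140, 147 and 142 CPM in the GFP libraries and 295, 354, 361 and 305 CPM in the RXRa libraries, 2.14-fold higher (edgeR, adjusted p = 0.00688). Irf9 was at 110, 74.9, 87.7 and 90.9 CPM against 151, 159, 158 and 159 CPM, a level nearly equal in the 4 RXRa libraries (1.72-fold, edgeR, adjusted p = 0.00901). Irf7, which drives interferon genes and overlaps Phrf1, was at 206, 163, 117 and 139 CPM against 277, 451, 356 and 354 CPM. The kinase gene Tyk2 rose by a smaller amount, 1.3-fold (edgeR, adjusted p = 0.0132), from 29.7 to 32.5 CPM in the GFP libraries to 37.9 to 42.9 CPM in the RXRa libraries. Without GFP 4 the count of 8 was 1, Stat2, without the 3 libraries high in cortical markers it was 14, and with the cortical covariate 18.

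The interferon transcripts were scarce. Ifnb1, the gene of interferon beta, had 26 counts over the 8 libraries and was not tested, with 0.00 to 0.18 CPM in the GFP libraries and 0.12 to 0.21 CPM in the RXRa libraries. Ifng, the gene of interferon gamma that T cells and natural killer cells make, was at 0.671, 0.579, 0.0739 and 0.412 CPM against 1.01, 2.92, 0.921 and 1.74 CPM. Its groups did not overlap, and it missed the threshold (log2 ratio 1.93, SE 0.53, edgeR, adjusted p = 0.0791).

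Sensors of viral nucleic acid were also higher, with a median log2 ratio of 0.82. Of 17 tested genes 9 were called higher and 0 lower (3.01% and 0.689% over all genes). Ddx58, the RNA sensor also called RIG-I, was at 61.8, 45.8, 42.4 and 49.4 CPM in the GFP libraries and 82.0, 136, 131 and 103 CPM in the RXRa libraries. Ifih1, the sensor of long double-stranded RNA, was at 58.5, 40.0, 48.8 and 44.8 CPM against 78.4, 135, 129 and 96.4 CPM. Eif2ak2, the kinase that stops translation in response to such RNA, was at 78.2, 52.1, 65.8 and 60.3 CPM against 101, 160, 142 and 121 CPM. The groups were apart in these genes, with RXRa 1 the lowest of the RXRa libraries, and folds of 2.26, 2.28 and 2.05 (edgeR, adjusted p = 0.0124, 0.0132 and 0.0132). Without GFP 4, 0 of the 17 sensors were called by edgeR, 4 without GFP 2, 5 without RXRa 4, 6 without RXRa 2 or RXRa 3, 11 without the 3 libraries high in cortical markers and 14 with the cortical covariate.

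More than 1 in 2 genes of antigen presentation on MHC class I were called higher. Of 22 tested, 13 were called higher and 0 lower (3.01% and 0.689% over all genes), and 21 had a positive log2 fold change, with a median of 0.88. In 18 every RXRa library exceeded every GFP library, against 6.64% of all genes tested. Ubd, a ubiquitin-like protein that sends proteins to the proteasome, had the largest rise by the naming rule. Its level was 1.2, 0.940, 0.813 and 0.825 CPM in the GFP libraries and 2.18, 7.46, 4.19 and 5.87 CPM in the RXRa libraries, or 5.20-fold higher (SE of the log2 value 0.36, edgeR, adjusted p = 0.0132). RXRa 1 lay closest to the GFP libraries, and RXRa 2 was highest. H2-T22 was at 110, 96.0, 85.6 and 79.1 CPM against 160, 233, 203 and 197 CPM, 2.14-fold higher (edgeR, adjusted p = 0.00792). H2-Q6 and H2-Q7, near-identical neighbours on chromosome 17 whose reads may be split, were 2.84-fold and 2.89-fold higher. The count of 13 was 0 without GFP 4, 3 without RXRa 4, 5 without GFP 2 or RXRa 3, 6 without RXRa 2, 7 without GFP 3, 20 without the 3 libraries high in cortical markers and 20 with the cortical covariate.

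Over the 90 genes of the antiviral, GTPase, signalling and class I lists, 60 of 89 tested were called higher and 0 lower (3.01% and 0.689% over all genes), with a median log2 fold change of 1.02. These lists were chosen with earlier results of these data known. Their summed level was 9186, 7671, 5856 and 6292 CPM in GFP 1 to GFP 4 and 11411, 16304, 13168 and 13848 CPM in RXRa 1 to RXRa 4, so each RXRa library exceeded each GFP library. The count of 60 was 3 without GFP 4, 30 without RXRa 4, 33 without GFP 2 and 40 without RXRa 3, 78 without the 3 libraries high in cortical markers and 85 with the cortical covariate. In bulk tissue, more cells of a type and more RNA per cell cannot be told apart, here and in the groups that follow.

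MHC class II genes, the mark of professional antigen-presenting cells, had positive log2 fold changes in 11 of 11 tested, with a median of 0.86. Higher calls were made for 2 of the 11, against 3.01% of all genes tested. Cd74, the invariant chain, was at 66.8, 66.9, 32.5 and 31.9 CPM in the GFP libraries and 91.3, 194, 99.6 and 190 CPM in the RXRa libraries, 2.90-fold higher (edgeR, adjusted p = 0.0438). H2-Aa was at 31.0, 27.7, 12.2 and 13 CPM against 40.3, 85.7, 48.0 and 89.8 CPM (edgeR, adjusted p = 0.0444). In both genes GFP 3 and GFP 4 were the low GFP libraries, RXRa 2 and RXRa 4 the high RXRa libraries, and the groups were apart. Both calls were lost without GFP 2, GFP 3, GFP 4, RXRa 2, RXRa 3 or RXRa 4. The count was 6 without the 3 libraries high in cortical markers and 9 with the cortical covariate.

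Chemokines, which guide leukocytes into tissue, gave 2 calls of 17 tested, both higher (3.01% over all genes), with a median log2 fold change of 0.75. Cxcl11 was at 3.11, 4.27, 2.62 and 3.37 CPM in the GFP libraries and 8.27, 14.8, 12.7 and 9.75 CPM in the RXRa libraries, 3.40-fold higher (SE of the log2 value 0.21, edgeR, adjusted p = 0.00816). Its product, where intact, binds the receptor of activated T cells, but the annotation lists Cxcl11 as a polymorphic pseudogene and the strain is not given. Ccl5, made by T cells and natural killer cells, was at 22.2, 27.5, 19.1 and 13.9 CPM against 37.3, 64.8, 48.4 and 60.6 CPM, 2.55-fold higher (edgeR, adjusted p = 0.0162). Cxcl10, the neighbour of Cxcl11 and a classical interferon target, was at 144, 147, 77.9 and 93.3 CPM against 168, 265, 225 and 196 CPM, with no overlap between groups and an adjusted p of 0.0603 (edgeR). Cxcl10 and Cxcl11 overlap the gene Art3 in the annotation, and the use of strand in counting is not given in the sources used here. The count of 2 was 0 with GFP 4 left out, 1 with RXRa 4, 4 with GFP 1 and 5 with RXRa 1 left out, and 6 without the 3 libraries high in cortical markers. The cortical covariate gave 10 higher calls and 1 lower.

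T cell genes rose from low levels. Of 22 tested, 14 were called higher and 0 lower (3.01% and 0.689% over all genes), with a median log2 fold change of 1.65. Cd3d and Cd3e, subunits of the T cell receptor complex, define T cells. Cd3d was at 0.671, 1.23, 0.628 and 0.412 CPM in the GFP libraries and 1.79, 5.74, 2.07 and 4.09 CPM in the RXRa libraries (log2 ratio 2.22, SE 0.44, edgeR, adjusted p = 0.0316), and Cd3e at 0.848, 1.05, 0.887 and 0.675 CPM against 1.83, 5.91, 1.84 and 4.73 CPM. RXRa 2 and RXRa 4 were high, RXRa 1 and RXRa 3 lay closer to the GFP libraries, and neither gene overlapped between groups. Cd8a, of cytotoxic T cells, was at 1.59 to 2.46 CPM in the GFP libraries and 3.47 to 9.04 CPM in the RXRa libraries (edgeR, adjusted p = 0.0237). Cd4, which brain tissue also expresses, was the 1 member with a negative log2 fold change, at 38.2, 45.6, 54.7 and 45.6 CPM against 36.7, 49.4, 33.5 and 38.6 CPM, and its sign turned without GFP 3, RXRa 1 and RXRa 3. The count of 14 was 0 without GFP 4, 1 without RXRa 4, 2 without GFP 3, 3 without GFP 2, 4 without RXRa 2, 5 without GFP 1, 21 without the 3 libraries high in cortical markers and 21 with the cortical covariate.

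Genes of cytotoxic and natural killer cells had the highest median of the lists, 1.84 on the log2 scale. Of 19 tested, 15 were called higher and 0 lower (3.01% and 0.689% over all genes). Il2rb, the interleukin receptor subunit by which these cells are sustained, was at 10.6, 13.2, 8.39 and 7.80 CPM in the GFP libraries and 21.4, 54.5, 28.3 and 47.5 CPM in the RXRa libraries, 3.79-fold higher (SE of the log2 value 0.30, edgeR, adjusted p = 0.0142). Gzmb, a granzyme of killer cells, was at 5.58, 6.36, 5.88 and 6.22 CPM against 11.8, 32.2, 21.2 and 20.7 CPM, 3.58-fold higher (edgeR, adjusted p = 0.0112). The GFP libraries were close together in Gzmb, while the RXRa libraries ranged widely and RXRa 2 was highest. The transcription factor genes Tbx21 and Eomes, which direct the killer program, rose 4.12-fold and 4.13-fold, from 0.862 to 1.23 CPM and from 0.777 to 1.18 CPM in the GFP libraries (edgeR, adjusted p = 0.00792 and 0.0132). Klrk1, an activating receptor of natural killer cells, was at 3.15, 4.70, 2.37 and 2.89 CPM against 7.88, 17.4, 10.8 and 16.9 CPM, and the killer receptor genes Klrc1 and Klra7 rose 4.71-fold and 4.39-fold from under 1 CPM. The Klr genes lie in a cluster of similar copies on chromosome 6, so reads may be split between them. The count of 15 was 0 without GFP 4, 9 without RXRa 4, 10 without GFP 2, 18 without the 3 libraries high in cortical markers and 18 with the cortical covariate.

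Other leukocyte markers gave fewer calls. In the list of monocyte, macrophage and neutrophil genes 2 of 16 tested were called higher and 0 lower (3.01% and 0.689% over all genes). The median log2 fold change was 0.79. Log2 fold changes ran from -1.55 to 2.02, with 13 positive and 3 negative, and the genes named here are among the positive ones. Ly6c2, a marker of inflammatory monocytes with a near-identical neighbour in Ly6c1, was at 39.5, 26.7, 13.1 and 21.4 CPM in the GFP libraries and 70.2, 124, 86.4 and 130 CPM in the RXRa libraries, 4.06-fold higher (SE of the log2 value 0.32, edgeR, adjusted p = 0.0142). Plac8 was 2.96-fold higher (edgeR, adjusted p = 0.0156). Ccr2, the receptor by which monocytes enter tissue, was at 11.3, 11.6, 4.66 and 6.37 CPM against 12.6, 27.2, 16.8 and 33.0 CPM and missed the threshold (edgeR, adjusted p = 0.0693). B cell genes gave 0 calls among 7 tested of 12 by edgeR, 2 at an unadjusted p under 0.05, and 0 by DESeq2 and by voom. The cortical covariate gave 2 higher calls among the 7, and 5 of the 10 genes tested without the 3 libraries high in cortical markers were called higher. The 2 monocyte calls were lost without GFP 4, 1 remained without RXRa 4, and 6 genes of that list were called without RXRa 1. Of its 16 genes 9 were called higher with the cortical covariate, and without the 3 libraries high in cortical markers 10 higher and 1 lower of 17 tested.

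The 70 leukocyte genes together had a summed level of 486, 458, 305 and 353 CPM in GFP 1 to GFP 4 and 569, 1073, 710 and 974 CPM in RXRa 1 to RXRa 4. All RXRa libraries were above all GFP libraries, and the 2 highest, RXRa 2 and RXRa 4, were the RXRa libraries with the lowest cortical sum (86.8 and 65.5 CPM). Of 63 tested, 30 were called higher and 0 lower (3.01% and 0.689% over all genes), with a median log2 fold change of 1.57. The count was 0 without GFP 4, 10 without RXRa 4, 14 without GFP 2, 17 without GFP 3 or RXRa 2 and 49 with the cortical covariate. Without GFP 3, RXRa 1 and RXRa 3 it was 53, and the median was 1.94 over the 67 genes then tested.

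**Figure D4:**
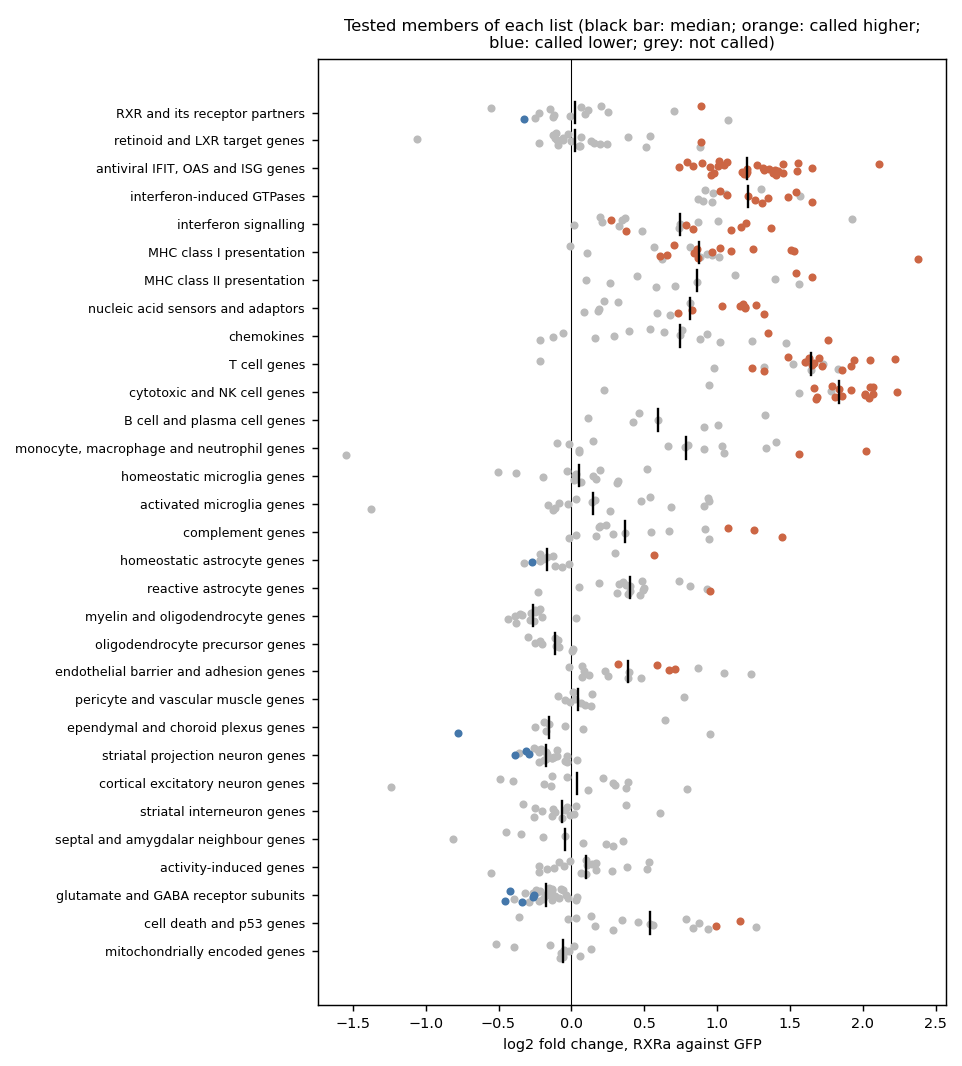
Log2 fold change of every tested member of each gene list (points, horizontal), with the list's median as a black bar; orange points were called higher, blue lower and grey not called. The antiviral row is orange throughout, the class I row reaches furthest right, at Ubd, the T cell and cytotoxic rows have the highest medians, and blue points lie mainly in the rows of striatal projection neuron genes and receptor subunits.

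Microglia are the resident immune cells of brain tissue. Of 14 homeostatic microglia genes 0 were called by edgeR, 3 had an unadjusted p under 0.05, and DESeq2 and voom each called 0, with a median log2 fold change of 0.05. Of the 14, 10 had a positive log2 fold change and 4 a negative one. Gpr34, the member with the smallest p, was at 21.1, 17.6, 16.2 and 18.7 CPM in the GFP libraries. In the RXRa libraries it was at 11.0, 14.7, 15.5 and 15.4 CPM. Its groups did not overlap, and it missed the threshold (edgeR, adjusted p = 0.132). Tmem119, a gene that marks microglia, was at 91.8, 74.0, 61.6 and 63.8 CPM in the GFP libraries and 73.6, 109, 84.4 and 95.3 CPM in the RXRa libraries, so the groups overlapped. Of 16 genes of activated microglia 0 were called by edgeR and by voom, 4 by DESeq2, and 5 had an unadjusted p under 0.05 (median 0.15). With the cortical covariate, edgeR called 5 of the homeostatic and 10 of the activated microglia genes higher. Without the 3 libraries high in cortical markers it called 0 and 4 higher and 1 and 1 lower.

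Astrocyte, vessel and complement genes changed in part. Complement genes gave 3 calls of 15 tested, all higher (3.01% over all genes): C1ra, C2 and Cfb. Of these, C2 and Cfb are neighbours that overlap another annotated gene. C1ra was at 13.9, 13, 7.80 and 7.76 CPM in the GFP libraries and 19.4, 27.2, 18.5 and 24.3 CPM in the RXRa libraries (2.11-fold, edgeR, adjusted p = 0.0328). These calls were kept without GFP 1 or RXRa 1, and 0 were made when any other library was left out. The count was 11 with the cortical covariate and 5 without the 3 libraries high in cortical markers. Of 13 homeostatic astrocyte genes 11 had a negative log2 fold change and 2 a positive one, with a median of -0.17. In 3 of them every RXRa library was below every GFP library, and in 0 above (6.54% and 6.64% of all genes tested). The water channel gene Aqp4 was called higher, at 1.48-fold, and S100b was called lower, at 1.2-fold lower (edgeR, adjusted p = 0.0478 and 0.0133). Calls were thus 1 higher and 1 lower of 13 (3.01% and 0.689% over all genes). Aqp4 overlapped between groups, since RXRa 1 was at 212 CPM and GFP 1 at 220 CPM. Its call was kept without GFP 1 or RXRa 1 and lost in the other 6 fits that left out 1 library, and voom and robust edgeR did not call it. S100b was at 79.1, 79.3, 78.6 and 75.2 CPM against 65.5, 65.2, 64.7 and 63.9 CPM, with little spread within a group. In this list 2 genes were called higher and 5 lower with the cortical covariate, and without the 3 libraries high in cortical markers 1 higher and 0 lower. Of 18 reactive astrocyte genes 1 was called higher (3.01% over all genes), Srgn, which leukocytes express too (1.93-fold, edgeR, adjusted p = 0.0398). In that list 17 genes had a positive log2 fold change, 9 had an unadjusted p under 0.05 (21.5% over all genes), and the median was 0.40. Its summed level was 3062, 2692, 1623 and 1994 CPM in the GFP libraries and 2643, 3691, 3035 and 3910 CPM in the RXRa libraries. With the cortical covariate 14 of the 18 were called higher, with 1 surrogate variable 13, and without the 3 libraries high in cortical markers 4. The classical marker of astrocyte reaction, Gfap, was at 704 to 924 CPM against 775 to 1232 CPM and overlapped (log2 ratio 0.32, edgeR, adjusted p = 0.231), and it was called with the cortical covariate (log2 ratio 0.41, edgeR, adjusted p = 0.0369).

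Genes of blood vessel endothelium gave 4 calls of 17 tested, all higher (3.01% over all genes), with a median log2 fold change of 0.39. Ly6c1 was at 35.4, 31.8, 31.3 and 36.1 CPM in the GFP libraries and 46.8, 61.8, 56.5 and 48.9 CPM in the RXRa libraries, 1.59-fold higher (edgeR, adjusted p = 0.0122). Kdr, the receptor for vascular growth factor, rose 1.63-fold, the junction gene Cdh5 1.5-fold and the barrier exporter gene Abcb1a 1.25-fold (edgeR, adjusted p = 0.0284, 0.0234 and 0.0445). The count of 4 was 0 without GFP 4, 1 without GFP 2, RXRa 2, RXRa 3 or RXRa 4 and 2 without GFP 3. It was 11 with the cortical covariate and 7 without the 3 libraries high in cortical markers. Of 10 pericyte genes 0 were called by edgeR, DESeq2 or voom, and 1 had an unadjusted p under 0.05.

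Of 17 cell death genes 2 were called higher (3.01% over all genes), Casp4 and Gsdmd, whose products act together in inflammatory cell lysis. Of the 17, 15 had a positive log2 fold change, with a median of 0.54, and 12 had an unadjusted p under 0.05 (21.5% over all genes). In 5 every RXRa library exceeded every GFP library, against 6.64% of all genes tested. Casp4 was at 10.1, 8.28, 4.40 and 6.22 CPM in the GFP libraries and 12.6, 19.2, 16.2 and 17 CPM in the RXRa libraries (2.23-fold, edgeR, adjusted p = 0.0333), and Gsdmd at 15.4, 15.9, 9.24 and 10.8 CPM against 19.8, 32.1, 22.1 and 28.2 CPM (1.99-fold, edgeR, adjusted p = 0.0352). Mlkl, the executor of necroptosis, was at 8.73, 7.34, 3.03 and 4.76 CPM against 10.1, 18.8, 13.4 and 15.2 CPM. Its groups did not overlap, and it missed the threshold (edgeR, adjusted p = 0.0561). The count of 2 was 0 without GFP 2, GFP 4, RXRa 2, RXRa 3 or RXRa 4, 1 without GFP 3, 4 without GFP 1 and 8 without RXRa 1. It was 11 with the cortical covariate and 7 without the 3 libraries high in cortical markers.

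A few genes of striatal neurons fell, by small amounts. Of 22 tested genes of striatal projection neurons 21 had a negative log2 fold change, with a median of -0.18, and 3 were called lower (0.689% over all genes). They were Bcl11b and Foxp1, transcription factors of these neurons, and Gpr6, a receptor of the Drd2 type of neuron. Bcl11b was at 385, 370, 377 and 416 CPM in the GFP libraries and 320, 338, 297 and 290 CPM in the RXRa libraries, 1.24-fold lower (log2 SE 0.07, edgeR, adjusted p = 0.0359). Gpr6 was at 95.1, 109, 101 and 123 CPM against 88.0, 83.3, 77.5 and 79.3 CPM, 1.31-fold lower (edgeR, adjusted p = 0.0385). The groups were apart in both genes. The count of 3 was 0 without GFP 2, GFP 3, GFP 4, RXRa 3 or RXRa 4, 1 without RXRa 2, 2 without GFP 1 or RXRa 1, 3 with the cortical covariate and 0 without the 3 libraries high in cortical markers. Drd1 was 1.13-fold and Drd2 1.17-fold lower, and neither passed the test (edgeR, adjusted p = 0.275 and 0.164).

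Of 30 glutamate and GABA receptor subunit genes 28 had a negative log2 fold change, with a median of -0.17, and 5 were called lower (0.689% over all genes). Grm3, a glutamate receptor gene that neurons and astrocytes express, was at 129, 115, 127 and 142 CPM in the GFP libraries and 81.0, 105, 95.3 and 93.9 CPM in the RXRa libraries, 1.37-fold lower (edgeR, adjusted p = 0.0287). Gria1, the AMPA receptor subunit, was at 616, 567, 574 and 636 CPM against 527, 496, 484 and 496 CPM, 1.19-fold lower (edgeR, adjusted p = 0.0461). Grm5, Grik2 and Gabra5 were 1.27-fold, 1.2-fold and 1.34-fold lower (edgeR, adjusted p = 0.045, 0.0412 and 0.0461). In all 5 genes every RXRa library was below every GFP library, as in 10 of the 30, against 6.54% of all genes tested. The count of 5 was 0 without GFP 4, RXRa 3 or RXRa 4, 1 without GFP 1, GFP 2 or GFP 3 and 3 without RXRa 1 or RXRa 2. It was 8 with the cortical covariate and 0 without the 3 libraries high in cortical markers.

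Over the 67 tested genes of the neuronal lists 8 were called lower and 0 higher (0.689% and 3.01% over all genes), and the median log2 fold change was -0.16. Negative values were found in 60 of the 67, against 9941 of all 18579 genes tested. The summed level was 17695, 18012, 18902 and 19779 CPM in the GFP libraries and 17226, 17219, 16320 and 15136 CPM in the RXRa libraries. RXRa 4, with a high leukocyte sum, was lowest, and GFP 4 highest. The count of 8 was 4 with library totals in place of TMM scaling, when 54 genes were negative and the median was -0.12. It was 0 without GFP 4, RXRa 3, RXRa 4 or the 3 libraries high in cortical markers, 1 without GFP 2 or GFP 3, 3 without GFP 1, 4 without RXRa 2, 5 without RXRa 1 and 11 with the cortical covariate.

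Other neural lists gave few calls. Of 15 interneuron genes, 9 genes of neighbouring septum and amygdala and 19 activity-induced genes, 0 were called by edgeR, DESeq2 or voom, with 1, 2 and 2 genes at an unadjusted p under 0.05 and medians of -0.07, -0.05 and 0.10. Of 14 myelin genes 0 were called by edgeR and voom and 1 by DESeq2, 3 had an unadjusted p under 0.05, and 13 had a negative log2 fold change (median -0.27). Mbp, the myelin basic protein gene, was at 1533, 1710, 1837 and 1487 CPM in the GFP libraries and 958, 1563, 1317 and 1300 CPM in the RXRa libraries, so the groups overlapped and RXRa 1 was lowest. Of 10 oligodendrocyte precursor genes and 13 mitochondrially encoded genes 0 were called by edgeR, DESeq2 or voom, with 1 and 1 at an unadjusted p under 0.05 and medians of -0.11 and -0.06. The cortical covariate gave 1 lower call in the septum and amygdala list and 1 in the myelin list, and without the 3 libraries high in cortical markers 1 interneuron gene and 2 activity-induced genes were called higher. Of 9 ependymal and choroid plexus genes 1 was called lower (0.689% over all genes), Sspo.

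The largest falls among the called genes were under 2-fold. Prkg1, a protein kinase gene on chromosome 19, was at 33.0, 30.0, 23.3 and 33.6 CPM in the GFP libraries and 12.5, 20.7, 13 and 20.8 CPM in the RXRa libraries, 1.79-fold lower (log2 SE 0.19, edgeR, adjusted p = 0.0496). Sspo, an ependymal gene, was at 4.74, 5.89, 5.43 and 4.35 CPM against 2.18, 3.61, 3.41 and 2.71 CPM, 1.71-fold lower (edgeR, adjusted p = 0.0475), and its call was lost in each of the 8 fits that left out 1 library. The noncoding gene Gm28578 and the transporter gene Abca9 were 1.63-fold and 1.51-fold lower (edgeR, adjusted p = 0.0326 and 0.0223). Csmd3 and Lrp1b, genes of large membrane proteins of neurons, were 1.48-fold and 1.45-fold lower (edgeR, adjusted p = 0.0132 and 0.0132). Hpcal4, a calcium-binding protein gene of neurons, was at 1228, 1187, 1182 and 1297 CPM against 817, 858, 861 and 889 CPM. Its groups were far apart relative to their spread, at 1.43-fold lower (log2 SE 0.06, edgeR, adjusted p = 0.00688). Over protein-coding genes, the median span in the genome was 66.2 kb for the 120 called lower, 18.6 kb for the 509 called higher and 24.8 kb for all 15165 tested. Spans over 500 kb occurred in 12.5% of the genes called lower (15 of 120), 0 of 509 called higher and 1.43% of all.

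The promoter windows of 12788 tested genes were found in RefSeq, among them 415 of the genes called higher and 94 of those called lower. The ISRE core, shown in capitals in the 5 promoters above, occurred in 21% of the genes called higher (87 of 415), in 1.06% of those called lower (1 of 94) and in 3.86% of all genes tested. It was found in 57.1% of the antiviral list (12 of 21 matched genes), in 90% of the interferon-induced GTPases (9 of 10), in 6.98% of the leukocyte lists (3 of 43) and in 0 of 11 T cell genes. The share was 25% in the class I list (5 of 20) and 11.1% in the interferon signalling list (2 of 18). In the activity-induced list, where edgeR called 0 genes, it was 21.4% (3 of 14). The core of the gamma-activated site, TTC, any 3 bases and GAA, occurred in 13.3% of the genes called higher, 10.6% of those called lower and 8.37% of all tested. It overlapped an ISRE core in 24 of the 32851 promoters. The hexamer AGGTCA, to which RXR and its partners bind, occurred in 18.3%, 11.7% and 15.1%, and 2 copies of it in the same direction with 1 or with 4 bases between them in 0 of the called genes. The last 2 repeats were found in 5 and 1 of all tested genes. All were searched on both strands, and a match is a description of letters, not a site of binding.

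**Figure D5:**
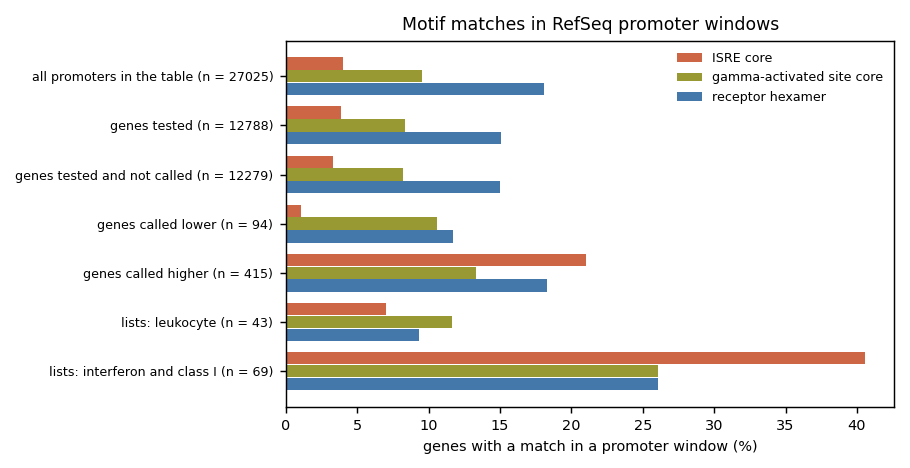
Share of genes (percent, horizontal) whose RefSeq promoter window holds the ISRE core, the gamma-activated site core or the receptor hexamer, for sets of genes named at the left with the number matched. The ISRE core is at 3.86% of all genes tested, 21% of genes called higher and 40.6% of the interferon and class I lists.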

How the data were processed

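RNA-seq counts of 8 bulk libraries were used; the 36 libraries of sorted nuclei were not analysed here. The authors deposited raw integer counts for each gene, not scaled in any way. The submitters' processing notes name FastQC, Trimmomatic, HISAT2, Picard, featureCounts, Subread and the build GRCm38, and the use of strand and the annotation release are not given in the sources used here. Of 55487 gene identifiers, 55394 were named from GENCODE M21. Neither library sizes nor tests included the 2 vector entries.

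Genes were filtered with filterByExpr (minimum count 10), scaled with TMM and tested with edgeR 4.0.16 in R 4.3.3 (quasi-likelihood, 2 groups, Benjamini-Hochberg over 18579 genes). Called means an adjusted p under 0.05, and CPM values are computed here. The same-group pairs of libraries differed by more than sampling noise, so each counted as 1 replicate. Bounds for a count of 0 are 3 counts, and cover counting error only. Vector levels were compared as log2(CPM + 1). The script was tested on simulated data, in which each gene varied on its own and only genes with a mean CPM of at least 1 were changed. There edgeR recovered 54% of 1.5-fold and 86% of 2-fold changes, and 7.28% of its calls were false. DESeq2 recovered 67% and 91% with 16.4% false calls, and voom 52% and 85% with 5.52% false calls. Smaller changes can thus be missed, and a list with 0 calls may hold some. The simulation had no spread shared by the genes of a library, such as that of the cortical markers. Its rates therefore need not hold for these libraries or for genes below 1 CPM. Promoter sequences are from RefSeq on GRCm38.p6.

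The naming rule picked the checks (Rxra, Slc17a7, Tbr1, Neurod2, Drd1, Drd2, Ubd, Ifit1, Il2rb and Gzmb). It also picked the 10 largest rises and falls among called genes without overlap and with a mean CPM of at least 1. From each gene list it picked up to 4 called members with the smallest p, or else the member with the smallest p. Not every gene it picked is described in the text: Cd52, Dhx58, Sytl3 and Ubash3a are among those left out. Members and lists were chosen with earlier results of these data known. Ifng, Ifnb1, Irf7, Mx1, Isg15, Cd3e, Cd4, Eomes, Klrk1, Ccr2, Tmem119, Gfap, Gabra5, Tgm2, Cdkn1a, Cxcl10, Abca1, Mbp and Mlkl were named after their values were seen. Alternatives were scaling, filters, DESeq2 1.42.0, limma 3.58.1 (voom), robust edgeR, a replicate block, a cortical covariate, a surrogate variable (sva 3.50.0) and each library left out; leaving out GFP 3, RXRa 1 and RXRa 3 was chosen after seeing the data.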

Additional observations from a re-analysis of the deposited data

Results flagged for a closer look

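In groups of 4 libraries, 15 of 292 levels had a library whose gap to its nearest neighbour was a larger share of the group's range than Dixon's critical value for 4 samples; chance flags about 1 in 20 groups. GFP 3 stood apart as the highest GFP library for cortical markers: Slc17a7 at 579 CPM, Tbr1 at 69.9 CPM, Neurod2 at 47.1 CPM, their sum at 696 CPM, the summed cortical excitatory neuron genes at 2952 CPM and the summed striatal interneuron genes at 708 CPM. Among single genes, GFP 1 was high for Stat2 (186 CPM) and GFP 2 for Ctsw (3.65 CPM), a cathepsin gene of killer cells, and GFP 4 was low for P2ry10 (0.750 CPM). RXRa 1 was low for Aqp4 (212 CPM), RXRa 2 high for Grm5 (365 CPM) and RXRa 4 high for Thrb (53.2 CPM). Among sums, RXRa 1 was high for RXR and its receptor partners (1329 CPM), RXRa 2 for the chemokines (1277 CPM), and RXRa 4 was low for the glutamate and GABA receptor subunits (4907 CPM).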

How the results depend on the processing

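Depth and the number of libraries limit the text: 4 libraries per group, a count of calls that fell to 9 without GFP 4, and transcripts as scarce as Ifnb1, which was below the count filter and not tested. Causes of the changes below were not tested. The main counts of called genes were 687 in all, 559 higher and 128 lower, 60 of the interferon and class I lists, 30 of the leukocyte lists and 8 of the neuronal lists. In the fits that left out 1 library the counts ranged from 9 to 1016 in all, 9 to 855 higher and 0 to 161 lower, from 3 to 72 for interferon and class I genes, 0 to 43 for leukocyte genes (0 to 1 lower) and 0 to 5 for neuronal genes (0 to 1 higher, 0 to 5 lower). The log2 difference of the vector RXRa level was between 4.87 and 5.12 there, with an exact p of 0.0571, the smallest that 3 against 4 libraries allow, and that of the vector GFP level between 0.08 and 0.44. DESeq2 called 1598 (1120 higher, 478 lower), with 46 leukocyte and 13 neuronal genes. The cortical covariate gave 2640 (1958 and 682) with 49 leukocyte genes, and 1 surrogate variable 2730 (1919 and 811) with 50 leukocyte and 16 neuronal genes (1 higher, 15 lower). Without GFP 3, RXRa 1 and RXRa 3 there were 1115 calls (1033 and 82), with 54 leukocyte genes (53 higher, 1 lower) and 1 neuronal gene (1 higher, 0 lower). Library totals gave 65 lower calls and 4 neuronal calls, all lower, and no filter on low counts gave 1 lower leukocyte call. RLE scaling, a mean CPM of at least 1, voom and robust edgeR gave 617 to 669 calls. The labels name no blocking factor. Deviations of same-numbered libraries correlated across genes at -0.56, 0.17, 0.53 and 0.02. GFP 3 correlated at 0.52 with RXRa 1 and at 0.53 with RXRa 3, and these are the 3 libraries high in cortical markers. Such correlations follow the cortical spread too, so they cannot show whether same-numbered libraries were handled together. A fit with the replicate number as a block called 0 genes (0 higher, 0 lower) over all genes and in each group of lists. By edgeR with the block, 3303 genes had an unadjusted p under 0.05 and the smallest adjusted p was 0.0543. Signs turned for uncalled genes: with the covariate the log2 ratio was -0.066 for Tbr1, -0.030 for Neurod2 and 0.073 for Abca1, and without the 3 libraries it was 0.056 for Cd4. When 1 library was left out, log2 ratios ranged from -0.12 to 2.20 for Slc17a7, -0.40 to 2.24 for Tbr1, -0.14 to 2.10 for Neurod2 and -0.25 to 0.030 for Abca1.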

Other observations

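Most genes called higher lay outside the gene lists, which hold 115 of the 559, and the genes here were chosen after their values were seen. Ptprc, which encodes the common leukocyte antigen, and Samhd1, which restricts viral replication by depleting nucleotides, were among them: the log2 fold change was 1.21 for Ptprc and 1.11 for Samhd1. Rnf213 had 1.15 and Ly6e 0.81, genes that interferon induces in many cells. Agrn, a secreted proteoglycan gene of synapses and basement membranes, had 0.39, and the glucose transporter gene Slc2a1 had 0.33. Dnase1l3, a nuclease gene, and Aplnr, the apelin receptor gene, were among the largest rises by the naming rule, at 4.52-fold and 4.46-fold.

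Of the 128 genes called lower the gene lists hold 11. Among the others, a few with products in neuronal adhesion were picked after their values were seen, with no list or count behind the choice. Cntnap5b and Cntnap3 were 1.53-fold and 1.44-fold lower, and the log2 fold change was -0.35 for Cntnap2. The teneurin genes Tenm2 and Tenm4 had -0.48 and -0.38, and the protocadherin genes Pcdhb6, Pcdhb19, Pcdhb17 and Pcdh9 had -0.45, -0.37, -0.28 and -0.43. The protocadherin cluster holds similar copies between which reads may be split.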
